A study of Mus musculus with 11 samples.

Results

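The genes described here are 8 named markers of CD4 T cells and regulatory T cells, read by symbol from a table of 31168 genes measured in the distal ileum: Cd4, Lck, Cd28, Foxp3, Il2ra, Ikzf2, Tnfrsf18 and Maf. All 8 were in the table and all 8 passed the filter on low counts that left 15911 genes. The tissue was a 2 cm piece of distal ileum from mice given dextran sodium sulfate, a polysaccharide that injures the intestinal lining. RNA was sequenced from 5 dIEC mice (H2-Ab1 fl/fl; Villin:Cre+) and from 6 WT mice (H2-Ab1 fl/fl; Villin:Cre-), so both groups carried floxed H2-Ab1, both received the sulfate, and only dIEC mice carried Cre. The villin promoter drives Cre in intestinal epithelial cells, and class II in cells of other types is not its target. The series' design text writes Cre- for both groups, and the groups here follow each sample's own genotype label.

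CD4 T cells recognise peptides held by MHC class II molecules, of which H2-Ab1 encodes a chain. CD4, the co-receptor, binds class II itself and brings the kinase Lck to the T cell receptor, whose signal passes through the CD3 chains, while CD28 gives the second signal. Regulatory T cells are the CD4 T cells that hold back immune responses, in the gut among other places. They are defined by the transcription factor Foxp3, carry much of the high-affinity IL-2 receptor chain CD25 (Il2ra) and of the receptor GITR (Tnfrsf18), and in part make the transcription factor Helios (Ikzf2). The comparison asks how far RNA of these genes, from whichever cells of the piece, differed between ilea with and without the epithelial deletion of a class II gene.

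None of the 8 genes passed the main test of dIEC against WT ilea. Cd4 was 1.23-fold its WT mean in dIEC ilea, Foxp3 1.02-fold and Il2ra 1.20-fold, each well within the spread between mice. In bulk tissue, fewer cells of a type and less RNA per cell cannot be told apart. Lck was the highest in fold (1.71-fold), with 4 of 5 dIEC ilea above every WT ileum and the fifth below every WT ileum. Tnfrsf18 was the lowest (0.727-fold). With edgeR's quasi-likelihood test 0 of the 8 passed an adjusted p of 0.05, where 1 of 15911 genes did (0.00628%), and Lck alone had an unadjusted p under 0.05, against 10.7% of all genes (4.87% higher and 5.79% lower in dIEC). DESeq2 called 0 of the 8 and 0.0391% of all genes. The groups overlapped in CPM for all 8, where 0.566% of all genes had groups that did not, and 0 of 8 had an exact permutation p of the CPM under 0.05, against 7.94% of all genes. The gene that edgeR called was Mt1, a metallothionein and no member, named here because it is the single one.

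These are rare transcripts. Apart from Maf, the genes had between 1 and 82 counts per library, and the 7 of them together had 82 to 201 counts in libraries of 6603965 to 9681698 counts. Ribosomal RNA, with the overlapping locus Gm42418, took 40.5 ± 8.50% of the counts in dIEC libraries (SD, n = 5) and 34.6 ± 6.91% in WT libraries (n = 6), and protein-coding genes other than Lars2 had 1510296 to 3215574 counts per library. Values are given as CPM, counts per 1000000 counts of a library, scaled with trimmed mean of M values (TMM) factors. H2-Ab1 checks the labels: it had 39.2, 23.1, 17.5, 33.2 and 16.8 CPM in dIEC replicates 1, 3, 5, 6 and 11, against 47.5, 88.0 and 111.8 CPM as the lowest, median and highest of the WT libraries. Every dIEC library was below every WT library (two-sided exact permutation p = 0.00433, the smallest that 5 libraries against 6 allow), although the edgeR adjusted p over all genes was 0.361. Other chains of MHC class II and other cells of the piece were not part of this check. The ileal genes Slc10a2 and Fabp6, looked at after their values were seen, averaged 226 ± 51.8 and 199 ± 121 CPM in dIEC libraries and 146 ± 133 and 156 ± 45.7 CPM in WT libraries.

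Levels per length differed between the genes, most of all for Maf. Over all 11 libraries, Maf had 14.6 ± 5.47 CPM per kilobase of exon (SD), Tnfrsf18 1.39 ± 0.414, Lck 0.687 ± 0.327 and Cd4 0.640 ± 0.240. Ikzf2 had 0.556 ± 0.129 CPM per kilobase, Foxp3 0.556 ± 0.175, Cd28 0.237 ± 0.0928 and Il2ra 0.196 ± 0.0992. Neighbours from Lck down to Foxp3, and the pair Cd28 and Il2ra, lie within each other's SD, whereas Maf lies apart from the rest.

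**Figure D1:**
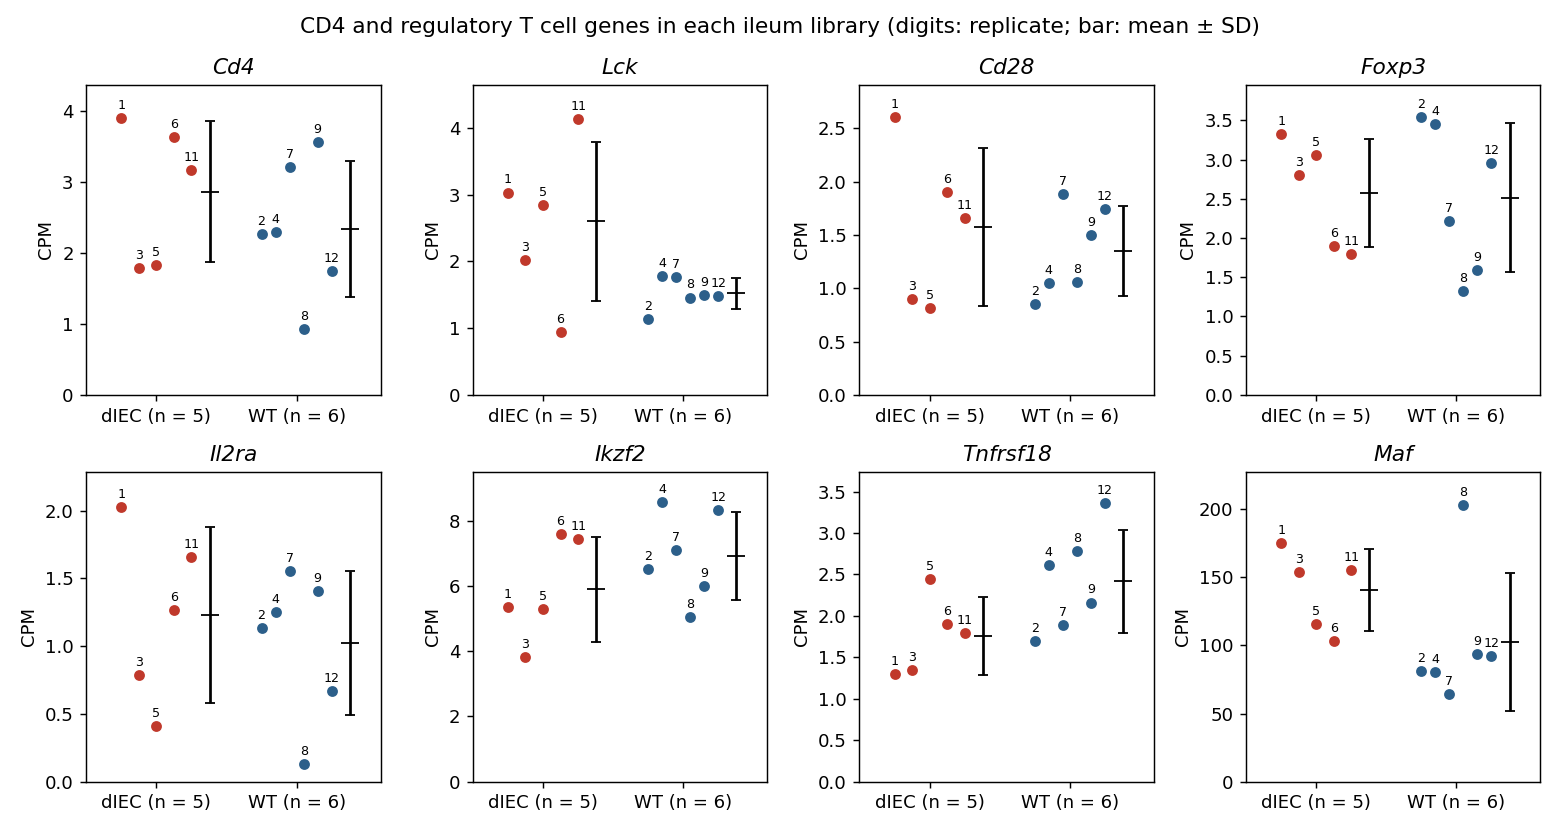
Level of each gene in CPM (vertical axis, from 0) in 5 dIEC libraries (red, left) and 6 WT libraries (blue, right), with the replicate number at each point and the mean ± SD beside it. The groups overlap in all 8 panels: 4 of 5 dIEC libraries lie above all WT libraries for Lck, WT replicate 8 stands apart at 203.2 CPM for Maf, and it is the lowest library for Cd4, Foxp3 and Il2ra.

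The co-receptor gene Cd4 (chr6:124864692-124888221, minus strand, GRCm38) had 3.90, 1.80, 1.83, 3.64 and 3.18 CPM in dIEC replicates 1, 3, 5, 6 and 11. In WT ilea the lowest was 0.929, the median 2.28 and the highest 3.57 CPM. The dIEC ilea formed a high set of 3 and a low pair, with replicates 1 and 6 above all WT ilea, and WT replicate 8 held the lowest value of all, so the groups overlapped. Means were 2.87 ± 0.997 CPM in dIEC (SD, n = 5) and 2.34 ± 0.962 CPM in WT (n = 6), a log2 fold change of 0.27 (SE 0.31; edgeR adjusted p = 0.767). Leaving out 1 library moved this value to between 0.11, without WT replicate 8, and 0.43, without WT replicate 9. The 95% interval of the fold was 0.758 to 1.91, on 98 counts in dIEC libraries and 125 in WT libraries. Folds within it are compatible with these values, and its ends are not a limit of detection.

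Lck (chr4:129548344-129573641, minus strand) encodes the kinase that CD4 and CD8 both carry. It had 3.03, 2.02, 2.85, 0.950 and 4.14 CPM in dIEC replicates 1, 3, 5, 6 and 11, against 1.14 to 1.78 CPM in WT ilea, with a median of 1.49. WT ilea lay close together, and dIEC ilea lay on both sides of them, with replicate 6 the lowest of all 11. The means were 2.60 ± 1.19 CPM in dIEC and 1.52 ± 0.239 CPM in WT. The log2 fold change of 0.76 (SE 0.29) had an edgeR p of 0.0217 and an adjusted p of 0.428, and the exact permutation p of the CPM was 0.0649. Without dIEC replicate 6 the difference in CPM widened to 1.49 (exact permutation p = 0.00952), so that 1 library decided on which side of 0.05 this single value fell. That p is the smallest the remaining libraries allow. It was fixed in advance, because every other dIEC ileum lay above all WT ilea.

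Lck has 2 promoters in the mouse, a distal one and a proximal one, and RefSeq starts transcripts at both. Both are shown because Lck had the largest fold of the 8 genes, together with the promoter of Tnfrsf18, the gene at the low end. Of the 8 genes, 4 had promoters in the RefSeq table (GRCm38.p6), which runs from 250 bases before a start to 50 after it. The sequences run 5′ to 3′ along the gene, with motif matches in capitals.
Lck distal promoter, chr4:129573592-129573891, minus strand: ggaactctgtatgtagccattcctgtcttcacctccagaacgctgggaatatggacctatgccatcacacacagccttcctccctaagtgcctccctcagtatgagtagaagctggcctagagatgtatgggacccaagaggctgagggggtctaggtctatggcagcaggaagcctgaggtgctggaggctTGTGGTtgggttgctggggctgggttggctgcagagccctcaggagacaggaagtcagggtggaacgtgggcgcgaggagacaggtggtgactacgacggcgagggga
Lck proximal promoter, chr4:129558323-129558622, minus strand: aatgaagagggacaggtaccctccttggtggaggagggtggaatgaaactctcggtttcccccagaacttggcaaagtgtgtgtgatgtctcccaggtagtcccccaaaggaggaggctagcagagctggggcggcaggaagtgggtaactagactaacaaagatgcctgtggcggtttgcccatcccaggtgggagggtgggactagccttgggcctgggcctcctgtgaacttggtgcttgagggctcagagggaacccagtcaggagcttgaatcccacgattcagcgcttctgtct
Tnfrsf18 promoter, chr4:156026072-156026371, plus strand: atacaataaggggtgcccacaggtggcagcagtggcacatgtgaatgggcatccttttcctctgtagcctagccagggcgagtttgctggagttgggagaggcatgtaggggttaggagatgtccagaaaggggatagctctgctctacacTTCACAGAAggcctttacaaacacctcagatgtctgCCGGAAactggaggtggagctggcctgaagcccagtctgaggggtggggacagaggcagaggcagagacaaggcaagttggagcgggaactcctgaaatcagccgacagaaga
The motifs searched, on both strands, were GATAAG for GATA factors, TGTGGT for Runx factors, CCGGAA for Ets factors, TGCTGA for Maf factors and TTCNNNGAA for STAT factors. The distal promoter of Lck held 1 TGTGGT, which 16.8% of all 32851 promoters in the table hold, and the proximal promoter held no match to the 5 motifs. In the Tnfrsf18 promoter there was 1 TTCNNNGAA (8.30% of all promoters) and 1 CCGGAA (14.9%). GATAAG and TGCTGA, which 7.44% and 19.5% of all promoters hold, were in none of the 3 windows. A match describes the letters of a window and is not a binding site, and these libraries do not tell which Lck promoter was in use.

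Cd28 (chr1:60716800-60773359, plus strand), the receptor of the second signal, had 2.60, 0.898, 0.815, 1.90 and 1.66 CPM in the dIEC libraries in the same order. WT libraries ran from 0.851 to 1.89 CPM with a median of 1.28. The highest and the lowest value of all 11 were both in dIEC ilea, in replicates 1 and 5. The log2 fold change was 0.21 (SE 0.32; edgeR adjusted p = 0.831), and it was -0.04 without dIEC replicate 1.

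The CD3 chains, which carry the signal of the T cell receptor, all had higher means in dIEC than in WT ilea, and none passed the adjusted threshold. Cd3e, a CD3 chain, averaged 4.34 ± 0.952 CPM in dIEC ilea and 2.36 ± 0.709 CPM in WT ilea, with 4 of 5 dIEC ilea above all WT ilea (log2 fold change 0.87, SE 0.23; exact permutation p of the CPM = 0.00866; edgeR adjusted p = 0.427). Trbc2, a constant part of the receptor's beta chain and close in sequence to Trbc1, stood at 0.83 (log2 fold change, SE 0.31, with an adjusted p of 0.427 in edgeR). The log2 fold change was 0.49 (SE 0.36) for Cd3g, 0.53 (SE 0.40) for Trac and 0.16 (SE 0.16) for Cd247, the zeta chain. Cd3d, which failed the filter, had 0.33 (SE 0.39) in the fit without it. Of 9 chains listed 5 were measured; all 5 had a log2 fold change above 0, against 48.8% of all genes, 0 were called, and their median was 0.53, against -0.01 over all genes.

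Cd8a encodes a chain of CD8, the co-receptor of cytotoxic T cells. Its level was 11.1, 5.05, 4.07, 2.85 and 9.80 CPM in dIEC replicates 1, 3, 5, 6 and 11, against 1.70 to 4.17 CPM in WT ilea. Its means were 6.58 ± 3.66 CPM in dIEC and 2.99 ± 0.972 CPM in WT (log2 fold change 1.15, SE 0.34; edgeR adjusted p = 0.427). Of the 15 CD8 and cytotoxic lymphocyte markers 9 were measured, and all 9 had a log2 fold change above 0, against 48.8% of all genes. Of the 9, 6 were higher with an unadjusted edgeR p under 0.05, against 4.87% of all genes. None was called by edgeR, and the median was 0.80. Ccl5 had a log2 fold change of 1.24 (SE 0.25) and Cd7 one of 1.24 (SE 0.32), and DESeq2 called Ccl5 (adjusted p = 0.0258). The summed level of the list was 39.1 to 81.1 CPM in dIEC ilea and 23.0 to 45.7 CPM in WT ilea. Lck, Cd28 and the CD3 chains are made in CD8 T cells as well, and the part of those cells in their values was not tested. Cd8b1, the gene of the other CD8 chain and named here as an exception, failed the filter. It had 26 counts in all libraries, against 384 for Cd8a. Which cells made the Cd8a RNA was not tested.

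**Figure D2:**
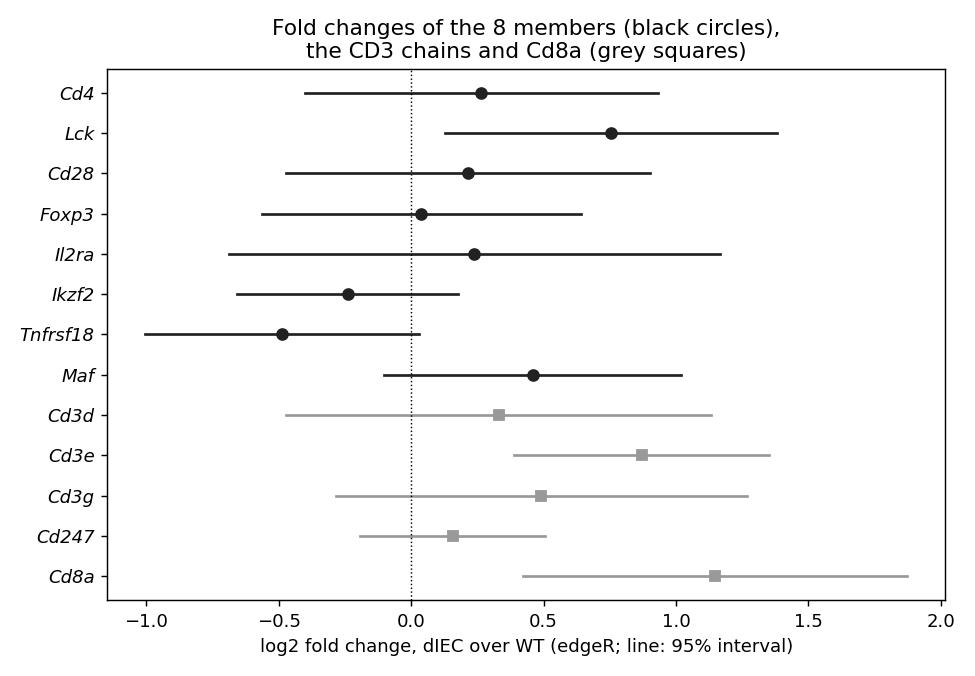
Log2 fold change, dIEC over WT, with its 95% interval (horizontal axis) for the 8 genes (black circles) and for the CD3 chains and Cd8a (grey squares). Lck is the single one of the 8 whose interval leaves out 0, at 0.13 to 1.38, beside Cd3e and Cd8a among the others; none of these passes the adjusted threshold.

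Foxp3 (chrX:7573644-7595245, plus strand), which defines regulatory T cells, had 3.32, 2.81, 3.05, 1.90 and 1.80 CPM in dIEC replicates 1, 3, 5, 6 and 11. WT ilea ran from 1.33 to 3.55 CPM with a median of 2.59. Each group held high and low libraries, and all 5 dIEC values lay inside the WT range. Means of 2.58 ± 0.691 CPM in dIEC and 2.52 ± 0.946 CPM in WT gave a log2 fold change of 0.04 (SE 0.28; edgeR adjusted p = 0.973), with a 95% interval of the fold from 0.677 to 1.56. The sign depended on single libraries: the log2 fold change was -0.07 without dIEC replicate 1 and -0.08 without WT replicate 8. With library size alone it was -0.20, where the median of all genes was -0.22, so that Foxp3 lay near the median gene under this scaling as well. Foxp3 shares bases with Flicr (37 counts in all libraries), Ppp1r3f (47), Ccdc22 (7) and Gm36995 (3), against its own 215.

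Il2ra (chr2:11642807-11693193, plus strand), the IL-2 receptor chain that regulatory T cells hold at high level, had 2.02, 0.786, 0.407, 1.27 and 1.66 CPM in the same dIEC libraries. In WT ilea it had 0.133 CPM at the lowest, a single count in replicate 8, with a median of 1.20 and 1.55 at the highest. The dIEC values covered the WT range except that one low value, and replicates 1 and 11 lay above all WT ilea. The log2 fold change was 0.24 (SE 0.43; edgeR adjusted p = 0.867), the widest error of the 8 genes, on 98 counts in all; it was -0.004 without dIEC replicate 1.

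Ikzf2 (chr1:69531214-69687245, minus strand) encodes Helios, which some innate lymphocytes make as well. It had 5.35, 3.82, 5.29, 7.60 and 7.46 CPM in the dIEC libraries, and 5.04, 6.81 and 8.57 CPM as the lowest, median and highest in WT. The lowest value was in dIEC replicate 3, and the other 4 dIEC ilea lay inside the WT range. Means were 5.90 ± 1.61 CPM in dIEC and 6.93 ± 1.36 CPM in WT (log2 fold change -0.24, SE 0.20; edgeR adjusted p = 0.645).

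Tnfrsf18 (chr4:156026164-156028895, plus strand), the gene of GITR, had 1.30, 1.35, 2.44, 1.90 and 1.80 CPM in dIEC ilea. WT ilea had 1.70 CPM at the lowest, a median of 2.39 and 3.36 at the highest. Replicates 1 and 3 of dIEC were below all WT ilea, and replicate 5 alone was above the WT median. Means of 1.76 ± 0.466 CPM in dIEC and 2.42 ± 0.620 CPM in WT gave a log2 fold change of -0.49 (SE 0.24; edgeR p = 0.0626, adjusted p = 0.480; exact permutation p of the CPM = 0.0779). Its counts were 9 to 13 in dIEC libraries and 12 to 25 in WT libraries. Around each group's own mean they spread hardly more than counting noise allows (chi-square per degree of freedom 1.03), which leaves the difference between the groups out. Without dIEC replicate 5 or without WT replicate 2, the permutation p of this single value came to 0.0476.

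The antisense gene Gm16008 covers all 2732 bases of Tnfrsf18, and its counts were nearly as many, 152 against 181. It averaged 1.15 ± 0.449 CPM in dIEC ilea and 2.17 ± 0.755 CPM in WT ilea (log2 fold change -0.89, SE 0.32). The kit kept strand, but the strand setting of the counting is not given in the sources used here, so reads of Tnfrsf18 and of Gm16008 cannot be told apart with certainty. The ligand of GITR, Tnfsf18, had 37 counts in all libraries and failed the filter.

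Among the genes around IL-2, 11 of 12 were measured, 7 with a log2 fold change above 0 and 4 below, with a median of 0.05, and 0 were called; without WT replicate 12 it was 5 above and 6 below, with a median of -0.03. The cytokine gene Il7 had the lowest p (4.58 ± 1.01 CPM in dIEC and 3.29 ± 0.854 CPM in WT; log2 fold change 0.46, SE 0.21; edgeR adjusted p = 0.461). Jak3, the kinase of the receptors' common chain, had a log2 fold change of 0.20 (SE 0.11), Stat5a, which carries the IL-2 signal to the nucleus, one of -0.29 (SE 0.15) and Il15ra 0.37 (SE 0.24). Il2 itself had 26 counts in all libraries.

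Other regulatory T cell genes stood on both sides of 0. Of 20 listed, 12 were measured, 6 with a log2 fold change above 0 and 6 below, with a median of -0.07; 2 higher and 3 lower ones had an unadjusted p under 0.05 and 0 were called. This median changed with single libraries, to -0.21 without dIEC replicate 5, -0.20 without WT replicate 8 and -0.14 without dIEC replicate 1, and to 0.05 without dIEC replicate 11, 0.02 without WT replicate 4 and 0.01 without WT replicate 7. Il1rl1, the IL-33 receptor, averaged 1.73 ± 0.866 CPM in dIEC ilea and 4.29 ± 1.91 CPM in WT ilea (log2 fold change -1.33, SE 0.42; exact permutation p of the CPM = 0.0260; edgeR adjusted p = 0.427). Itgb8, an integrin chain that activates TGF-beta, was at 1.38 ± 0.678 CPM in dIEC and 2.52 ± 0.591 CPM in WT (log2 fold change -0.90, SE 0.29; adjusted p = 0.427). Nt5e, the enzyme CD73, had a log2 fold change of -0.46 (SE 0.17), and Prdm1, which encodes the transcription factor Blimp-1, one of 0.61 (SE 0.22). All 4 are made in other cells of the gut too, Il1rl1 in group 2 innate lymphoid cells and Prdm1 in plasma cells. Of 12 innate lymphoid cell markers 6 were measured, 1 above 0 and 5 below, with a median of -0.27. Their summed level was 63.9 to 79.2 CPM in dIEC and 70.5 to 85.7 CPM in WT. The part of innate lymphoid cells in the value of Il1rl1, which is on both lists, and in those of the 8 genes was not tested.

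Co-stimulation was barely within reach: 3 of 17 genes passed the filter. Cd274, which encodes PD-L1, averaged 4.70 ± 1.05 CPM in dIEC ilea and 3.20 ± 0.703 CPM in WT ilea (log2 fold change 0.55, SE 0.20; edgeR adjusted p = 0.427). Btla, an inhibitory receptor of lymphocytes, had 1.80 ± 0.469 CPM in dIEC and 1.02 ± 0.416 CPM in WT (log2 fold change 0.77, SE 0.31; adjusted p = 0.428), and Icosl had a log2 fold change of 0.00 (SE 0.18). Ctla4 and Icos, 2 further receptors on regulatory T cells, failed the filter and were looked at after their values were seen. Ctla4 had 15, 7, 4, 6 and 1 counts in dIEC replicates 1, 3, 5, 6 and 11, against 0 to 5 counts in WT ilea. Icos averaged 0.511 ± 0.319 CPM in dIEC and 0.938 ± 0.198 CPM in WT, the other way, on 63 counts in all. In the fit without a filter the adjusted p of Ctla4 was 0.556 and that of Icos 0.587.

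Helper subset genes were measured for 11 of 25, 8 above 0 and 3 below, with a median of 0.19 and 0 called. Stat3, a mediator of IL-6 and IL-22 signals made in nearly every cell, averaged 81.1 ± 8.99 CPM in dIEC and 63.0 ± 10.6 CPM in WT (log2 fold change 0.36, SE 0.13; edgeR adjusted p = 0.427). Runx3 had a log2 fold change of 0.49 (SE 0.23), the gut-homing receptor gene Ccr9 0.38 (SE 0.21) and Rora -0.35 (SE 0.19). The cytokine genes Ifng, Il4, Il5, Il13, Il17f, Il21 and Il22 all failed the filter, with 2 to 19 counts each over the 11 libraries, so their levels were not measurable at this depth. T cell receptor signalling genes other than Lck were measured for 14 of 20, 11 above 0 and 3 below, with a median of 0.24 and 0 called. The median was 0.10 without dIEC replicate 1, 0.14 without WT replicate 2, 0.15 without WT replicate 8 and 0.38 without WT replicate 4. Ptpn22, a phosphatase that limits the receptor's signal, averaged 21.3 ± 4.12 CPM in dIEC and 14.97 ± 3.52 CPM in WT (log2 fold change 0.51, SE 0.17, edgeR adjusted p = 0.427). It was called without WT replicate 8, in a fit that called 2.02% of all genes. Zap70, the kinase that Lck activates, had a log2 fold change of 0.48 (SE 0.29), Vav1 0.31 (SE 0.22) and the leukocyte gene Ptprc 0.26 (SE 0.18). Of 10 genes of naive cells and lymph node homing 7 were measured, 3 above 0 and 4 below with a median of -0.10, which was 0.00 without WT replicate 4; the values were 0.19 (SE 0.13) for Foxo1, 0.34 (SE 0.26) for Bach2, -0.10 (SE 0.10) for Foxp1 and -0.19 (SE 0.23) for Klf2.

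Set beside CD3 chain RNA of the piece, the 8 genes were read as counts per count of Cd3d, Cd3e, Cd3g and Cd247 together, with 0.5 added to each. This ratio is free of library scaling, and it is not a count of T cells. Over all libraries Cd247 gave 510 counts, Cd3e 274, Cd3g 129 and Cd3d 66, so the sum rests most on Cd247. The chains summed to 15.3, 12.01, 8.55, 13.9 and 16.6 CPM in dIEC replicates 1, 3, 5, 6 and 11, against 8.51 to 11.4 CPM in WT ilea, with means of 13.3 ± 3.14 CPM in dIEC and 10.02 ± 1.02 CPM in WT (exact permutation p = 0.0519). The 7 genes other than Maf summed to 18.5 ± 3.47 CPM in dIEC and 18.1 ± 3.01 CPM in WT, with overlapping ranges of 13.5 to 21.7 and 12.7 to 21.0 CPM.

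Cd4 per CD3 chain count was 0.154 to 0.266 in dIEC ilea and 0.106 to 0.358 in WT ilea (log2 difference -0.04; two-sided exact permutation p = 0.909). For Foxp3 the ratio was 0.112 to 0.365 in dIEC and 0.149 to 0.421 in WT (log2 difference -0.28; p = 0.459, exact permutation). Tnfrsf18 stood at 0.0892, 0.116, 0.294, 0.141 and 0.112 in dIEC replicates 1, 3, 5, 6 and 11, and at 0.189 to 0.305 in WT ilea, with 4 of 5 dIEC ilea below all WT ilea (log2 difference -0.81; exact permutation p = 0.0303). Ikzf2 stood at 0.321 to 0.624 in dIEC and 0.546 to 0.805 in WT, with 3 of 5 dIEC ilea below all WT ilea (log2 difference -0.62; exact permutation p = 0.0216). Adjusted over the 9 ratios tested, both came to 0.136. For none of the 8 were all dIEC ratios below all WT ratios, as they were for 2.16% of all genes.

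These 2 of 8 lower ratios (25%) are not a result about these genes, because 23.9% of all 15911 genes had such a ratio lower at the same threshold and the median gene's ratio differed by -0.39. Per count of Ptprc, which all leukocytes make, the median gene differed by -0.29, and 2 of the 8, again Ikzf2 and Tnfrsf18, were lower with a p under 0.05, against 11.2% of all genes. Ikzf2 per Ptprc count was 0.153, 0.147, 0.200, 0.191 and 0.198 in dIEC replicates 1, 3, 5, 6 and 11, and 0.204 to 0.319 in WT ilea, so the groups did not overlap (log2 difference -0.53; exact permutation p = 0.00433), as was so, in the lower direction, for 0.924% of all genes. The other 3 tested ratios to the CD3 chains within the T cell genes, those of Il2ra, Cd28 and Lck, had log2 differences of -0.02, -0.22 and 0.25 with exact permutation p from 0.372 to 0.944, and that of Maf 0.16 (exact permutation p = 0.641).

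Cd4 per Cd8a count sets RNA of 2 co-receptor genes side by side, from whichever cells made it. It was 0.355, 0.363, 0.463, 1.27 and 0.329 in dIEC replicates 1, 3, 5, 6 and 11, against 0.333 to 1.45 in WT ilea with a median of 0.833. Replicate 6 of dIEC was among the high WT values and the other 4 were at the low end, where WT replicates 8 and 12 lay as well (log2 difference -0.67; exact permutation p = 0.234, adjusted over the 9 ratios 0.701). Foxp3 per Cd4 count was 0.532 to 1.63 in dIEC and 0.455 to 1.67 in WT.

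**Figure D3:**
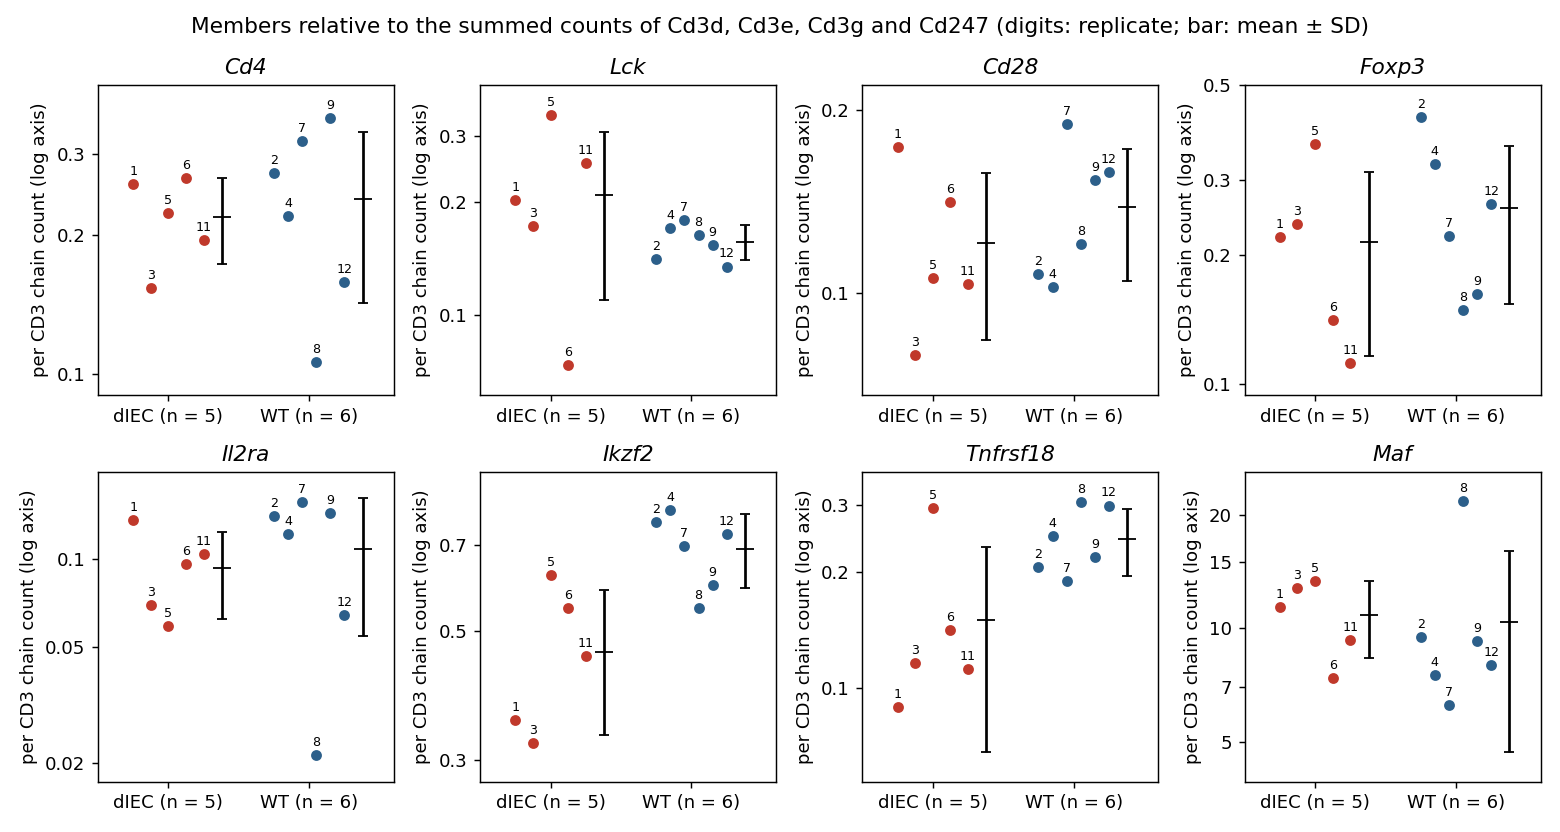
Counts of each gene per count of the 4 CD3 chains together, each with 0.5 added (vertical axis, log scale) in 5 dIEC libraries (red, left) and 6 WT libraries (blue, right), with the mean ± SD of the ratios beside the points. For Ikzf2, 3 of 5 dIEC libraries lie below all WT libraries, and for Tnfrsf18 4 of 5, while Cd4, Il2ra and Maf overlap widely.

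Maf (chr8:115682942-115707794, minus strand) had by far the highest level per length of the 8 genes. Its product c-Maf acts in helper and regulatory T cells that make IL-10, and also in macrophages and in mouse villus enterocytes, so its level in whole ileum cannot be assigned to T cells. It had 175.3, 154.2, 115.7, 103.5 and 155.1 CPM in dIEC replicates 1, 3, 5, 6 and 11, and 81.6, 80.4, 64.3, 203.2, 93.5 and 92.0 CPM in WT replicates 2, 4, 7, 8, 9 and 12. All 5 dIEC ilea were above 5 of the 6 WT ilea, and WT replicate 8 was above all others. With all 11 libraries the log2 fold change was 0.46 (SE 0.26; edgeR adjusted p = 0.524; exact permutation p of the CPM = 0.195). Without WT replicate 8 it was 0.77 with an edgeR adjusted p of 0.0350, in a fit that called 319 of 15794 genes (2.02%). The CPM then differed by 58.4 (exact permutation p = 0.00794). That p is the smallest that 5 libraries against 5 allow. Leaving out the 1 WT library above the dIEC ilea fixed it in advance, so no conclusion is drawn from it.

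WT replicate 8 also had the highest summed level of the 10 epithelial markers among all libraries, 2878 CPM, against 2112 to 2848 CPM in dIEC ilea and 1815 to 2273 CPM in the other WT ilea. All 10 epithelial markers had a log2 fold change above 0 (median 0.22, 0 called), among them Elf3 at 0.38 (SE 0.15), Cldn7 0.41 (SE 0.20), Cdx2 0.28 (SE 0.14) and Vil1 0.43 (SE 0.24). Macrophage and dendritic cell markers summed to 149.9 to 216.7 CPM in dIEC and 106.3 to 211.4 CPM in WT; each of the 18 had counts in every library, and of 15 measured, 5 were above 0 and 10 below (9 above and 6 below without WT replicate 4, 8 and 7 without dIEC replicates 3 or 11), with Irf8 at 0.50 (SE 0.15), Adgre1 -0.62 (SE 0.32) and Sirpa -0.36 (SE 0.23). The part of epithelium and of macrophages in the Maf level was not tested. The antisense gene Gm15655 shares 2156 bases with Maf and had 1160 counts against 10066, with a log2 fold change of 0.50 (SE 0.30).

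The 8 genes did not follow each other from mouse to mouse as 1 group. Across the 11 libraries log2 CPM of Cd4 and Il2ra had a Pearson r of 0.93 (Spearman rho 0.88), and for each of the pair the other was the most alike of the genes compared; the r was 0.82 without dIEC replicate 1 and WT replicate 8, the ends of the range. Cd4 and Foxp3 had an r of 0.07, Foxp3 and Il2ra 0.24, Cd4 and Cd28 0.66 and Cd4 and Lck 0.15. These are descriptions with no p, since low counts and shared libraries enter every pair and the most alike genes were picked from 15911.

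Most alike to Cd4 after Il2ra were Akt1 (r 0.89) and the pseudogene Pdcd5-ps (0.86), and to Il2ra after Cd4 Coro1a (0.92) and Dusp7 (0.90). For Foxp3 they were St7 (0.95), Ldb1 (0.87) and Rai1 (0.87). Lck went most with Tnfsf10 (0.96), the gene of the death ligand TRAIL, then with Pias1 (0.93) and Nudt4 (0.92), and Cd28 with Vps33a (0.89), Cytip (0.88) and AU020206 (0.86). Ikzf2 went most with Nudt6 (0.88), Ylpm1 (0.87) and Ccpg1 (0.86), and Tnfrsf18 with Zfp692 (0.90), Ltn1 (0.87) and Ppcdc (0.85). Maf went with Itpk1 (0.99), Ezr (0.99) and Aspa (0.99), of which Ezr encodes ezrin, a protein of the epithelial brush border, and each r stayed at 0.98 or 0.99 without dIEC replicate 1 and WT replicate 8.

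**Figure D4:**
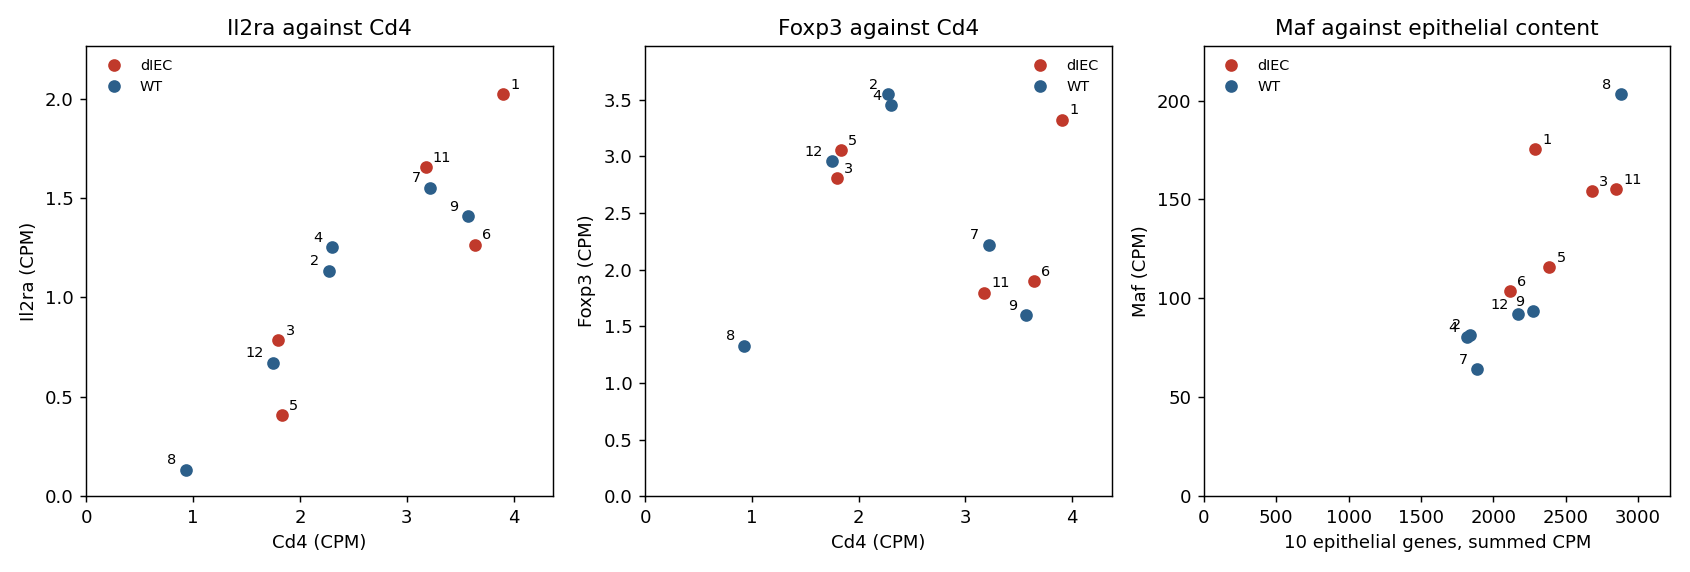
Il2ra against Cd4 and Foxp3 against Cd4, all in CPM, and Maf in CPM against the summed CPM of 10 epithelial markers, with 1 point per library (dIEC red, WT blue, replicate numbers beside the points). Il2ra follows Cd4 from WT replicate 8 to dIEC replicate 1, Foxp3 does not, and Maf is highest where the epithelial sum is 2878 CPM, in WT replicate 8. At sums of 2288 and 2273 CPM, Maf is at 175.3 CPM in dIEC replicate 1 and 93.5 CPM in WT replicate 9. At sums of 2112 and 2172 CPM, it is closer, at 103.5 CPM in dIEC replicate 6 and 92.0 CPM in WT replicate 12. The part of epithelium in the Maf level was not tested.

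Libraries at the ends of these ranges stood apart in other cell types too. In dIEC replicate 1, which was highest for Cd4, Il2ra and Cd28, the 13 B cell and follicle markers summed to 46.4 CPM, against 8.98 to 18.4 CPM in the other dIEC ilea and 10.3 to 17.2 CPM in WT ilea. Ighm, the IgM heavy chain, alone had 200 counts in that library. Over the groups, 3 of these 13 markers were measured and all 3 were above 0, Cd37 at 0.74 (SE 0.32), Cxcl13 at 0.78 (SE 0.56) and Ighm at 0.89 (SE 0.70), with a median of 0.78. Without dIEC replicate 1 the median was 0.03, with 2 of the 3 above 0 and 1 below, so this median rested on that library. Ighm and Cxcl13 had their highest counts there, 200 and 48, whereas Cd37 had its highest, 23, in dIEC replicate 6. Fcer2a had 0 counts in 1 library and Pax5 in 2. With their score as a covariate, the log2 fold change of Foxp3 was -0.10 and that of Cd28 -0.08. Smooth muscle markers had a log2 fold change below 0 in 6 of 6, with a median of -0.35, which was -0.20 without dIEC replicate 1 or without WT replicate 4 and -0.53 without dIEC replicate 6, and a summed level of 1146 to 2656 CPM in dIEC and 1919 to 4022 CPM in WT (Mylk -0.46, SE 0.23; Acta2 -0.49, SE 0.26; Myh11 -0.37, SE 0.26; Tagln -0.34, SE 0.24). Endothelial markers were below 0 in 8 of 9, with a median of -0.30 and a summed level of 52.2 to 74.9 CPM in dIEC and 49.8 to 102.4 CPM in WT (Flt4 -0.62, SE 0.23; Pecam1 -0.39, SE 0.18; Tek -0.52, SE 0.25; Plvap -0.33, SE 0.21). With all libraries none of these markers passed the adjusted threshold. Without WT replicate 8, 5 of the 117 measured list genes other than the 8 were called, namely Ptpn22, Ccl5, Vil1, Cldn7 and Flt4. That fit called 319 of 15794 genes (2.02%). The part of these markers in the values of the 8 genes was not tested beyond these 2 covariates.

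**Figure D5:**
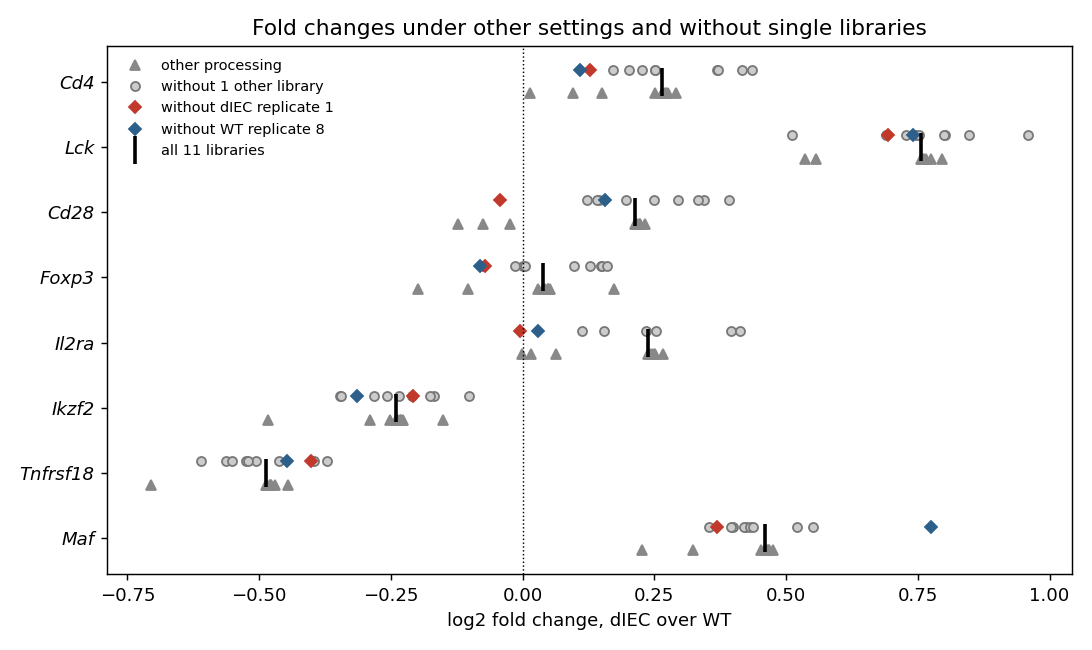
Log2 fold change, dIEC over WT (horizontal axis), of each gene with all 11 libraries (black bar), without 1 library (circles, with dIEC replicate 1 in red and WT replicate 8 in blue as diamonds) and under other scaling, filters, tests and covariates (triangles). Cd4, Lck and Maf stay above 0 and Ikzf2 and Tnfrsf18 below 0 in all of these, whereas Foxp3, Il2ra and Cd28 cross 0.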

How the data were processed

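RNA of 11 pieces of distal ileum, 5 dIEC and 6 WT, was compared; the design text gives as many mice, so each library was taken as 1 mouse. Per the labels' protocols, the tissue went into Trizol, RNA was purified on Direct-zol columns of Zymo Research, and NEBNext Ultra directional chemistry gave the libraries. Per the submitters' processing notes, TopHat2 was used with the mm10 build; how reads were counted, with which strand setting and annotation, is not given in the sources used here. Whole-number counts per gene, not normalized, are what the authors deposited. The row that names no gene (0.00778 to 0.0147% of a library's counts) was left out of library sizes and tests. Coordinates are from GENCODE vM21 (GRCm38), which holds 99.2% of the symbols, and promoters from RefSeq.

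The tests ran in R 4.3.3. After filterByExpr by group (edgeR 4.0.16) and TMM scaling, genes were tested with the robust quasi-likelihood F test, dIEC against WT, Benjamini-Hochberg adjusted over all genes (threshold 0.05). Single values and ratios, log2((count + 0.5) / (sum + 0.5)), were tested by exact permutation, two-sided, over the 462 ways to draw 5 of the 11 libraries. Likeness is Pearson r of log2 CPM (prior count 2), with symbols ending in Rik or starting with Gm left out. In counts simulated for this comparison, 15672 genes tested, the fit found 79 of 100 changes of 2-fold, 96 of 100 of 4-fold, and made 6 false calls. These rates belong to the simulated counts and need not hold for the 8 genes. In the real libraries H2-Ab1, at 0.31-fold, had an edgeR adjusted p of 0.361. All 25 pairs of libraries within a group differed by more than counting noise, with a chi-square of 9.24 to 62.4 per degree of freedom.

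Alternatives were DESeq2 1.42.0, other scalings and filters, a non-robust fit, B cell and smooth muscle covariates, Ptprc as denominator and leaving out each library. The 8 genes and the lists were chosen with earlier results of these data known. Named besides the 8 are, per list, up to 4 measured genes with the lowest p, the CD3 chains, Cd8a, H2-Ab1 and the 3 genes most alike each; exceptions are marked, and values of some listed markers are not reported here. Intervals and p-values rest on the spread among these 11 libraries; no batch, litter or cage is named in the labels.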

Additional observations from a re-analysis of the deposited data

Results flagged for a closer look

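Of 38 sets of values of 1 group, for which chance alone gives about 1 in 20, 4 held a library far from the others. Maf had 203.2 CPM in WT replicate 8, against 64.3 to 93.5 CPM in the other WT libraries, and its ratio to the CD3 chains was 21.72 there, against 6.28 to 9.51. The ratio of Tnfrsf18 to the CD3 chains was 0.2941 in dIEC replicate 5, against 0.0892 to 0.141 in the other dIEC libraries; that library had the fewest counts, 12 for Tnfrsf18 and 42 for the chains. The ratio of Cd4 to Cd8a was 1.27 in dIEC replicate 6, against 0.329 to 0.463 in the other dIEC libraries, with 23 counts of Cd4 and 18 of Cd8a.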

How the results depend on the processing

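No paired analysis was possible because no replicate number occurs in both groups. The direction of Cd4, Lck, Ikzf2, Tnfrsf18 and Maf was kept in their log2 fold changes under every alternative that gave a value, 21 for each gene but 20 for Tnfrsf18, Cd28 and Lck and 17 for Il2ra, which failed the filter in the others; no member was called except Maf without WT replicate 8, and the cause of the changes below was not tested. Genes called were 11 with DESeq2, 2 with library size alone, and 1 to 319 without single libraries, the highest without WT replicate 8; members called were 0 to 1. Library size alone moved the median log2 fold change of all genes from -0.007 to -0.22, and changes of sign or threshold under it below are read against that shift. Log2 fold changes were then 0.014 for Cd4, -0.48 for Ikzf2, -0.20 for Foxp3, -0.002 for Il2ra and -0.023 for Cd28. With the B cell covariate they were 0.095 for Cd4, 0.015 for Il2ra, -0.104 for Foxp3 and -0.076 for Cd28, and with the smooth muscle covariate 0.15 for Cd4, 0.17 for Foxp3, 0.064 for Il2ra, -0.15 for Ikzf2, -0.12 for Cd28 and 0.23 for Maf. Without single libraries they ran from 0.11 to 0.43 for Cd4, -0.35 to -0.10 for Ikzf2, -0.08 to 0.16 for Foxp3, -0.004 to 0.41 for Il2ra, -0.042 to 0.39 for Cd28 and 0.35 to 0.77 for Maf.

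Differences in CPM with library size alone were -0.390 for Foxp3, -0.0196 for Il2ra, -0.999 for Tnfrsf18 (exact permutation p = 0.0130) and -0.0443 for Cd28; per 1000000 protein-coding counts, which are 22.9 to 37.3% of a library, so that values in this unit are larger and not comparable in size with CPM, they were -0.619 for Foxp3 and -2.56 for Tnfrsf18 (exact permutation p = 0.0476). Without single libraries they ran from -0.178 to 0.266 for Foxp3, -0.832 to -0.473 for Tnfrsf18, -0.0316 to 0.415 for Cd28, 0.693 to 1.49 for Lck and 29.6 to 58.4 for Maf. Log2 ratios to Ptprc in place of the CD3 chains were 0.058 for Cd4 and 0.078 for Il2ra. Those to the CD3 chains ran without single libraries from -0.25 to 0.10 for Cd4, -0.43 to 0.14 for Il2ra, -1.09 to -0.66 for Tnfrsf18 and 0.031 to 0.585 for Lck. The ratio of Tnfrsf18 missed p = 0.05 without dIEC replicates 1, 3 or 11 or WT replicates 8 or 12 (exact permutation p = 0.0556 to 0.0667), and that of Lck passed it without dIEC replicate 6 (p = 0.0190, exact permutation). Depth limits all of this, with 98 to 555 counts in all libraries for the members other than Maf.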
